A study of Homo sapiens with 6 samples.

Results

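The genes described here encode the MHC class II antigen presentation system, with HLA-DP at their centre. They were taken from a list of 9 genes: the chains HLA-DPA1, HLA-DPB1 and HLA-DRA, the peptide-loading chaperones HLA-DMA, HLA-DMB, HLA-DOA and HLA-DOB, the invariant chain gene CD74, and the transcriptional coactivator gene CIITA. Only probe sets annotated to exactly 1 gene symbol were used, and probe sets of a gene with identical values on every array were counted once. This left 14 of the 19249 distinct single-symbol probe sets, for 7 of the 9 genes. HLA-DRA and CD74 had no single-symbol probe set and no value is assigned to them, because the 3 rows that list HLA-DRA and the 1 row that lists CD74 also list another gene.

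MHC class II molecules are pairs of an alpha and a beta chain that carry peptides from endosomes to the cell surface, where CD4+ T cells read them. In most cells outside the immune system they are made only after induction, classically by interferon-gamma, which acts through JAK1, JAK2 and IRF1 on the CIITA gene. CIITA does not bind DNA itself but docks on the RFX and NF-Y factors at a conserved set of promoter elements, the X and Y boxes. Intestinal epithelium is known for inducible class II, and colorectal cancer cells differ in whether they can make it.

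The study used cultured HCT116 cells, a long-established line from a human colorectal carcinoma. The 6 arrays comprised 3 of the parental genotype and 3 of a mutant line derived from HCT116, whose DNA methylation is altered. The comparison asks what a gene mutation does to expression across the genome. The labels name neither the mutated gene nor any agent, and they do not say how many clones the mutant arrays represent, so the mutation and other differences between the lines cannot be told apart.

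The array medians lay between 6.88 and 6.93 on the log2 scale of robust multi-array average (RMA) values, and arrays of the same line correlated across probe sets at 0.995 to 0.996. Sequencing depth does not apply to arrays; their number limits the precision. The files hold no detection call, so a low level is given as a level and not as presence or absence. The labelled epithelial origin was checked on EPCAM, which was bright with a mean of 12.15 in parental and 12.33 in mutant cells, while the intestinal differentiation marker CDH17 was low in both, at 4.26 and 4.23. Both belong to a list of 10 colon epithelium markers. In parental cells KRT8, KRT18 and KRT19 were also bright, with means of 13.32, 12.71 and 12.45. KRT20, VIL1 and GPA33 were low there, at 5.87, 5.76 and 5.82, and CDX1 and CDX2 lay between, at 7.12 and 8.52. By the test described below, 0 of the 10 were higher in the mutant line and 3, all keratins, were lower, against 14.6% and 11.3% of all genes. In these bulk samples, fewer cells that express a gene and less RNA per cell cannot be told apart.

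The promoters of 4 of these genes are shown first, because the HLA-DP genes rose and the chaperone genes did not pass the test. Each window holds 130 bases, from 140 to 11 bases before the start site in RefSeq (build GRCh38.p14), 5′ to 3′ on the strand of the gene. Capitals mark any of 3 short motifs, chosen after the sequences had been read: the letters ATTGG, the core of the Y box bound by NF-Y, the letters GCAAC, a half-site of the X box bound by RFX, and the letters TGATG, found in the X2 part of the X box, each searched on both strands. The windows come from chr6:33073660-33073789 (minus strand, HLA-DPA1), chr6:33075850-33075979 (plus strand, HLA-DPB1), chr6:32953108-32953237 (minus strand, HLA-DMA) and chr6:33009602-33009731 (minus strand, HLA-DOA).
HLA-DPA1: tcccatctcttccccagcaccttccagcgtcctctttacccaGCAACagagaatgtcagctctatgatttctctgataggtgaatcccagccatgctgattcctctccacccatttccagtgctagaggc
HLA-DPB1: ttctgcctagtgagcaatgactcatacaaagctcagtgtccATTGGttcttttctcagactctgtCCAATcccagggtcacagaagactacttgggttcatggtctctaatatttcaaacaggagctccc
HLA-DMA: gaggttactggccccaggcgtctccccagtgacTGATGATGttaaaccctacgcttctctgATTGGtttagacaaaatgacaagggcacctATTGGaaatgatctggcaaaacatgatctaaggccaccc
HLA-DOA: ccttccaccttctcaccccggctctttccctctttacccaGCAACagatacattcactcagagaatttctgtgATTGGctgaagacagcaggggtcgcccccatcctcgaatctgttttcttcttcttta

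RefSeq's promoter table held 8 promoters for 7 of the 9 genes, HLA-DPA1 having 2 start sites. The Y box core stood in 6 of these 8 windows and in 21.9% of the 35116 windows of the same length over all promoters in the table. The X box half-site stood in 2 of 8, against 16.1% of all, and the X2 core in 4 of 8, against 16.8%. TGATG can overlap itself, as it does in HLA-DMA. No class II window held all 3 motifs, which 0.652% of all promoter windows did. The window of the other HLA-DPA1 start site, not printed, held none of them. Only exact letters were searched, so a box with other letters would not be marked. The motifs were chosen after the class II sequences had been read, so these shares are no test of an excess. Such matches describe letters and are not evidence of binding.

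HLA-DPA1 and HLA-DPB1 lie next to each other in opposite orientation, and the start sites behind the printed windows are 2341 bases apart. The other HLA-DPA1 start site lies within HLA-DPB1, so the RefSeq spans of the 2 genes overlap on opposite strands, and the sources used here do not say whether their probe sets tell the strands apart. In the 28 comparisons between these 8 windows, the longest run of identical bases was the 20 bases shared by HLA-DPA1 and HLA-DOA, cctctttacccaGCAACaga, which holds the X box half-site. The next longest had 10 bases, both between HLA-DMA and HLA-DMB and between HLA-DMB and HLA-DOB.

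Both HLA-DP chains were higher in the mutant line, by 2.67-fold to 3.16-fold over their 5 probe sets. None of the other 5 measured genes of the list passed the test: the 9 probe sets of HLA-DMA, HLA-DMB, HLA-DOA, HLA-DOB and CIITA differed by between -0.12 and 0.24 on the log2 scale. A probe set was called where the Benjamini-Hochberg adjusted p of limma's test, taken over all 33297 probe sets, was under 0.05. By that rule 5 of the 14 class II probe sets were higher and 0 were lower, and 2 of 7 genes. Over all single-symbol probe sets, 14.5% were called higher, 11.2% lower and 25.7% in either direction. Against that background a count of 2 genes carries little weight, and what follows rests on the size of their change.

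HLA-DPA1 encodes the alpha chain of HLA-DP. On its first probe set (8125556, identical to 8178891) the parental arrays read 6.50, 6.36 and 6.11 and the mutant arrays 7.88, 7.62 and 7.93 on the log2 scale. Every mutant array was above every parental array. The mean went from 6.33 ± 0.20 to 7.81 ± 0.17 (SD, n = 3 each), a difference of 1.48 with a standard error of 0.13 (limma adjusted p = 0.000762). The second probe set (8180100) read 6.64, 6.41 and 6.21 in parental and 7.84, 7.57 and 8.12 in mutant arrays. The groups again did not overlap, and the difference was 1.42 (95% interval 1.01 to 1.83, limma adjusted p = 0.00258).

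HLA-DPB1 encodes the beta chain that pairs with it. Probe set 8178220 had the narrowest spread of the 3 for this gene, with 6.54, 6.55 and 6.64 in parental arrays and 8.24, 8.30 and 8.17 in mutant arrays. It rose by 1.66 (standard error 0.06, limma adjusted p = 3.56e-05), a 3.16-fold increase. Probe set 8118594 read 6.60, 6.98 and 7.002 in parental and 8.37, 8.32 and 8.16 in mutant arrays. Probe set 8179519 read 6.62, 6.86 and 7.10 in parental and 8.61, 8.47 and 8.27 in mutant arrays. The groups did not overlap on either, and the differences were 1.42 and 1.59 (limma adjusted p = 0.000812 and 0.000906).

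Across the 5 HLA-DP probe sets the highest parental array value was 7.10 and the lowest mutant value 7.57. Their parental means, from 6.33 to 6.86, lay below the lowest array median of 6.88. Signal over background could not be judged for the parental side of these changes. The 95% intervals of the 5 differences, which are not adjusted for the number of probe sets, overlapped one another. Differences between these probe sets were not tested. Probe sets of a gene may share probes, since some rows of this region are identical, so the 5 are not independent measurements of the increase. Of the 19249 single-symbol probe sets, 36 had a larger increase than HLA-DPB1 probe set 8178220 and 56 a larger one than HLA-DPA1 probe set 8180100. HLA-DPB2, a neighbouring pseudogene related to HLA-DPB1 and looked up after the HLA-DP values were seen, had a mean of 4.86 in parental and 4.97 in mutant cells, a difference of 0.11 (limma adjusted p = 0.540).

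**Figure D1:**
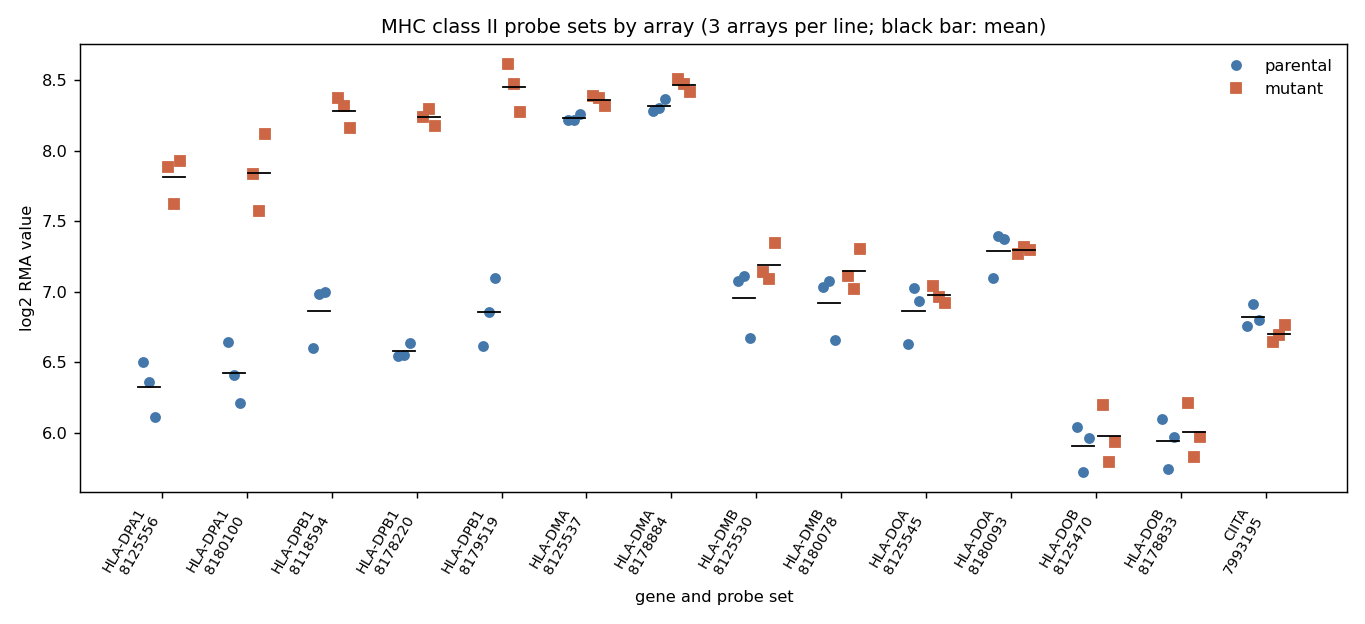
Log2 RMA values of the 14 class II probe sets (horizontal axis, by gene and probe set) on each of the 3 parental arrays (blue circles) and 3 mutant arrays (orange squares), with black bars for group means. On the 5 HLA-DP probe sets the parental values end at 7.10 and the mutant values begin at 7.57, while for HLA-DMB, HLA-DOA, HLA-DOB and CIITA the lines overlap.

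HLA-DM is the chaperone that removes the invariant chain remnant from class II molecules and edits their peptides. Its alpha chain gene HLA-DMA read 8.28, 8.31 and 8.37 in parental and 8.51, 8.47 and 8.42 in mutant arrays on probe set 8178884 (identical to 8180086). The groups did not overlap, but the difference was only 0.15 (95% interval 0.02 to 0.27) and did not pass the test (limma adjusted p = 0.114). Its other probe set (8125537) gave 0.13 (95% interval 0.01 to 0.24, limma adjusted p = 0.126), also without overlap. Groups that do not overlap were common here, at 45.6% of single-symbol probe sets and 7 of the 14 class II probe sets.

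HLA-DMB, the beta chain gene of HLA-DM, read 7.08, 7.11 and 6.68 in parental and 7.14, 7.09 and 7.35 in mutant arrays on probe set 8125530. Parental replicate 3 was the low value, and the groups overlapped. The difference of 0.24 had a 95% interval from -0.09 to 0.57 (limma adjusted p = 0.320). The second probe set (8180078) gave 0.22, with an interval from -0.10 to 0.55 (limma adjusted p = 0.345). These intervals lie below the differences measured for HLA-DP. Without parental replicate 3 the differences were 0.10 and 0.09.

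HLA-DO restrains HLA-DM and is known mainly from B cells and thymic epithelium. HLA-DOA, its alpha chain gene, read 6.63, 7.03 and 6.94 in parental and 7.04, 6.96 and 6.92 in mutant arrays on probe set 8125545. The groups overlapped, and the difference was 0.11 (95% interval -0.15 to 0.38, limma adjusted p = 0.580). Its second probe set (8180093) gave 0.01 (95% interval -0.21 to 0.22, limma adjusted p = 0.975). Neither has a settled direction, since the differences were -0.0048 and -0.09 without parental replicate 1, the lowest parental array on both. HLA-DOB, the beta chain gene, read 6.04, 5.72 and 5.96 in parental and 6.20, 5.79 and 5.94 in mutant arrays on probe set 8125470, so that replicate 2 was the lowest array of each line. The difference was 0.07 (95% interval -0.25 to 0.39, limma adjusted p = 0.802), and its other probe set (8178833) gave 0.07 as well (limma adjusted p = 0.803). The direction turned here too, to -0.04 on both without mutant replicate 1 and to -0.03 on both without parental replicate 2.

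CIITA, the master regulator of class II transcription, was the only one of the 7 measured genes with a lower mean in the mutant line. Its probe set (7993195) read 6.75, 6.91 and 6.80 in parental and 6.65, 6.69 and 6.76 in mutant arrays. The groups overlapped by 1 mutant array. The difference of -0.12 did not pass the test (95% interval -0.28 to 0.03, limma adjusted p = 0.279). Its means, 6.82 in parental and 6.70 in mutant cells, lay below the lowest array median of 6.88, as did the parental means of HLA-DP. Signal over background could not be judged. The HLA-DP increase was measured without a measured increase of CIITA RNA on this single, rather dim probe set. Whether CIITA has a part in the HLA-DP increase was not tested.

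**Figure D2:**
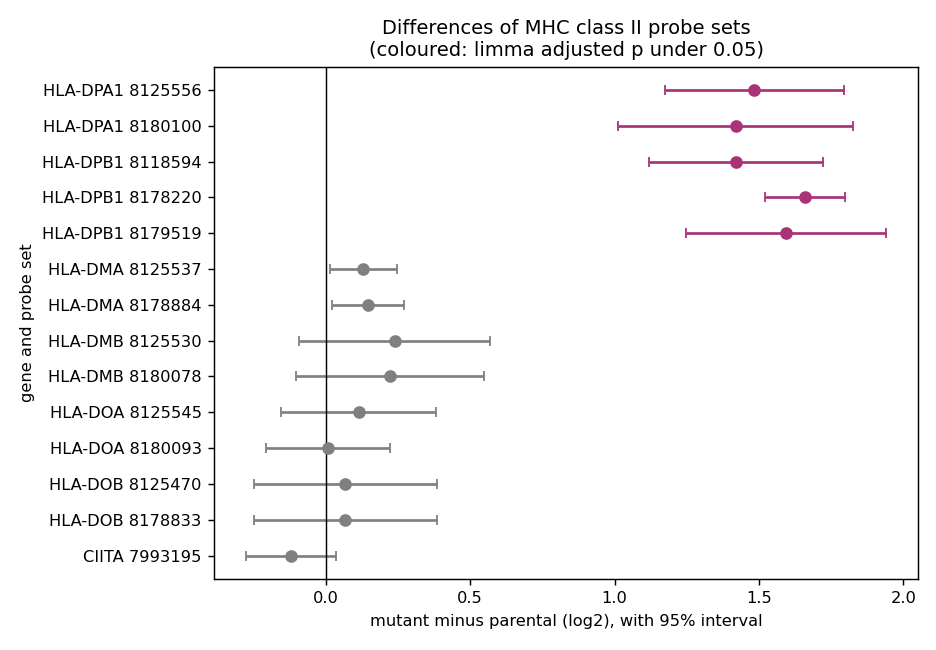
Mutant minus parental difference on the log2 scale (horizontal axis) for each of the 14 class II probe sets (vertical axis), with 95% intervals from limma; coloured points had an adjusted p under 0.05. The 5 HLA-DP probe sets lie between 1.42 and 1.66, and the other 9 lie between -0.12 and 0.24.

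Other class II genes were measured less well. Of 8 HLA-DR and HLA-DQ genes beyond the list, 3 had a single-symbol probe set, and 0 were called in either direction by limma. HLA-DRB5 gave 0.32 (adjusted p = 0.067), HLA-DQB1 0.34 (adjusted p = 0.428) and HLA-DQA1 -0.10 (adjusted p = 0.365). The HLA-DQB1 probe set was dim, with means of 3.52 in parental and 3.86 in mutant cells. Its mutant arrays read 3.54, 3.63 and 4.41, so the difference came mostly from mutant replicate 3. HLA-DRB5 had an unadjusted p under 0.05. A further 13 distinct probe sets carry several class II symbols and cannot be assigned to 1 gene. Among these, 5 were higher and 0 lower, where 16.3% of all distinct probe sets with several symbols were called higher and 8.47% lower. The 3 annotated to HLA-DRB genes together with HLA-DQB1 rose by 0.76, 0.80 and 0.83 (limma adjusted p = 0.000403, 0.000393 and 0.000269) and kept their call in all 15 alternatives run on them. They carry the same symbols and may share probes, so they are not independent measurements. The 3 annotated to HLA-DRA and HLA-DQA1 differed by between -0.0049 and 0.03. The other 2 that rose list HLA-DQB1 and HLA-DQB2, at 0.22 and 0.25 (limma adjusted p = 0.0278 and 0.0488). The first lost its call on leaving out any array except parental replicate 1, with an adjusted p of up to 0.102, and the second on leaving out any array, with an adjusted p of up to 0.133.

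The class II region was then read in RefSeq gene order from HLA-DRA to HLA-DPB1. Of 32 genes in that stretch, 14 had a single-symbol probe set. Of these, 6 belong to the list, and the other 8 include HLA-DRB5, HLA-DQA1 and HLA-DQB1, given above. Of the 8, 5 were higher and 0 lower, where 14.6% of all genes were called higher and 11.3% lower. These 5 were TAP1 (0.70) and TAP2 (0.52), which form the peptide transporter of the class I pathway, the immunoproteasome subunit genes PSMB9 (0.46) and PSMB8 (0.31), and BRD2 (0.25), which encodes a chromatin reader. HLA-DMB and HLA-DMA, which did not pass, lie between PSMB9 and BRD2, while HLA-DOB precedes TAP2 and HLA-DOA follows BRD2. The PSMB8 call was lost in 9 of its 15 alternatives, including the leaving out of any array except parental replicate 2, with an adjusted p of up to 0.123 there. The BRD2 call was lost in 6 of 16, including the leaving out of mutant replicate 2 or 3 or parental replicate 1 or 2, with an adjusted p of up to 0.101 there. Over the 977 measured genes of chromosome 6 the median difference was 0.0037, with 140 higher and 119 lower.

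**Figure D3:**
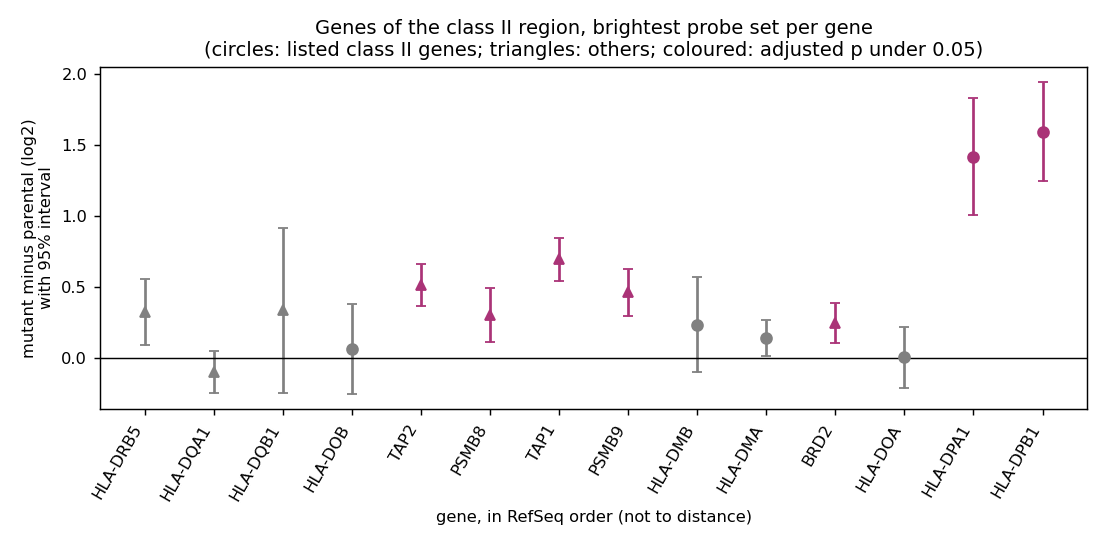
Mutant minus parental difference on the log2 scale, with 95% intervals (vertical axis), of the 14 measured genes between HLA-DRA and HLA-DPB1 in RefSeq order (horizontal axis, not to distance). Circles are the 6 listed class II genes, triangles are the other 8, and coloured points had an adjusted p under 0.05; HLA-DPA1 and HLA-DPB1 stand at 1.42 and 1.59 at one end, above the rest of the row.

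The list of class II promoter factors, which also holds the CIITA repressor gene PRDM1, showed differences from -0.73 to 0.44. Of 13 measured, 5 were higher and 1 was lower, where 14.6% of all genes were higher and 11.3% lower. The median difference was 0.11, beside 0.0034 over all genes. RFX5, the DNA-binding subunit of the RFX complex, read 9.08, 9.18 and 9.18 in parental and 9.48, 9.46 and 9.46 in mutant arrays, without overlap. It rose by 0.32 (limma adjusted p = 0.00835). Its partners RFXANK (0.11, adjusted p = 0.332) and RFXAP (0.11, adjusted p = 0.429) did not pass. The histone acetyltransferase genes KAT2B (0.44), EP300 (0.37) and CREBBP (0.34), whose products CIITA recruits, were higher. PRDM1, which encodes a repressor of CIITA in plasma cells, was lower by 0.73 on average. Its call (limma adjusted p = 0.0316) was lost on leaving out any array except mutant replicate 3, with an adjusted p of up to 0.0961.

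In the interferon-gamma pathway 1 of 10 measured genes was higher and 2 were lower, against 14.6% and 11.3% of all genes, with a median difference of 0.10. IRF1, a transcription factor that activates the CIITA gene, read 7.69, 7.77 and 7.80 in parental and 8.09, 8.20 and 8.09 in mutant arrays. Its groups did not overlap, and it rose by 0.37 (limma adjusted p = 0.00735). The receptor chain gene IFNGR1 (0.04) and the kinase genes JAK1 (0.06) and JAK2 (0.13) had limma adjusted p-values of 0.742, 0.446 and 0.307.

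The 2 genes that fell were PTPN2 and SOCS3. PTPN2, a phosphatase of JAK and STAT proteins, read 9.67, 9.56 and 9.67 in parental and 8.62, 8.59 and 8.74 in mutant arrays, a change of -0.98 (limma adjusted p = 0.000299). SOCS3, a feedback inhibitor of cytokine receptors, changed by -0.61 (limma adjusted p = 0.0104). SOCS1, a related feedback inhibitor of interferon signalling, differed by 0.07 and did not pass (limma adjusted p = 0.709). PTPN2 lies on chromosome 18, where 35 of 264 measured genes were higher and 66 lower, with a median difference of -0.04. SOCS3 lies on chromosome 17, where 103 of 1067 were higher and 244 lower, with a median difference of -0.04. Over all genes, 14.6% were higher and 11.3% lower. The part of these chromosomes' shifts in the 2 changes was not tested.

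Endosomal proteases cut antigens and the invariant chain for class II loading, and a thiol reductase acts beside them. Of 13 measured, 4 rose and 3 fell, against 14.6% and 11.3% of all genes, with a median difference of 0.04. CTSH, which encodes cathepsin H, had the largest change, reading 9.17, 9.07 and 9.02 in parental and 6.15, 5.87 and 6.27 in mutant arrays. The groups were far apart, and the gene fell by 2.99 (limma adjusted p = 4.62e-05), which is 7.95-fold. The exopeptidase gene CTSC rose by 0.66, IFI30, which encodes the interferon-inducible thiol reductase of endosomes, by 0.40 and the legumain gene LGMN by 0.31. CTSB, which encodes cathepsin B, changed by -0.25, and SPPL2A, which encodes the intramembrane protease that clears the invariant chain stub, by -0.22 (limma adjusted p = 0.0260). The SPPL2A call was lost in 7 of 16 alternatives, including the leaving out of any array except parental replicate 1, with an adjusted p of up to 0.0947 there. CTSS, which encodes the cathepsin known for trimming the invariant chain in professional presenting cells, was at 4.53 in parental and 4.36 in mutant cells (limma adjusted p = 0.348).

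Among 7 genes of class II turnover and its compartment, 0 were higher and 2 lower, against 14.6% and 11.3% of all genes, with a median difference of 0.04. CD63, a tetraspanin of late endosomes, changed by -0.37, and LAMP1, a lysosomal membrane protein, by -0.21. The CD63 call (limma adjusted p = 0.0188) was lost without parental replicate 2 or 3, with an adjusted p of up to 0.0637. The LAMP1 call (limma adjusted p = 0.0313) was lost on leaving out any array except parental replicate 1, with an adjusted p of up to 0.114. The ubiquitin ligase genes MARCHF1 (-0.15, adjusted p = 0.320) and MARCHF8 (0.09, adjusted p = 0.424), whose products remove class II from the surface, did not pass limma's test.

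Costimulatory molecules and other ligands that T cells read beside class II showed 2 of 13 genes higher and 1 lower, against 14.6% and 11.3% of all genes, with a median difference of -0.05. TNFSF4, which encodes OX40 ligand, read 5.22, 5.48 and 5.69 in parental and 8.99, 9.02 and 8.83 in mutant arrays, a larger difference than that of HLA-DP at 3.48 (limma adjusted p = 4.25e-05). TNFSF9, which encodes the 4-1BB ligand, rose by 0.78. ICAM1, an adhesion ligand of T cells, fell by 1.07 (limma adjusted p = 0.000128). The classical costimulators CD80 and CD86 were at 5.01 and 4.10 in parental cells and differed by 0.16 and -0.06 (limma adjusted p = 0.570 and 0.694).

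Over the 6 pathway lists, 12 of 59 measured genes were higher and 9 lower, where 14.6% of all genes were higher and 11.3% lower. Of the class I presentation genes, a closely related group, 11 of 14 measured were higher and 0 lower, with a median difference of 0.47. TAP1, TAP2, PSMB8 and PSMB9, given above among the genes of the class II region, are among these 11, so the counts overlap. The 11 also include NLRC5, the class I counterpart of CIITA. NLRC5 read 7.13, 7.03 and 7.13 in parental and 7.80, 7.72 and 7.68 in mutant arrays. Its groups did not overlap, and it rose by 0.64 (limma adjusted p = 0.000989). The largest increase among them, 1.01 for the peptide-trimming enzyme gene ERAP1, was smaller than that of any HLA-DP probe set. Whether class I and class II genes differ in their response was not tested.

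**Figure D4:**
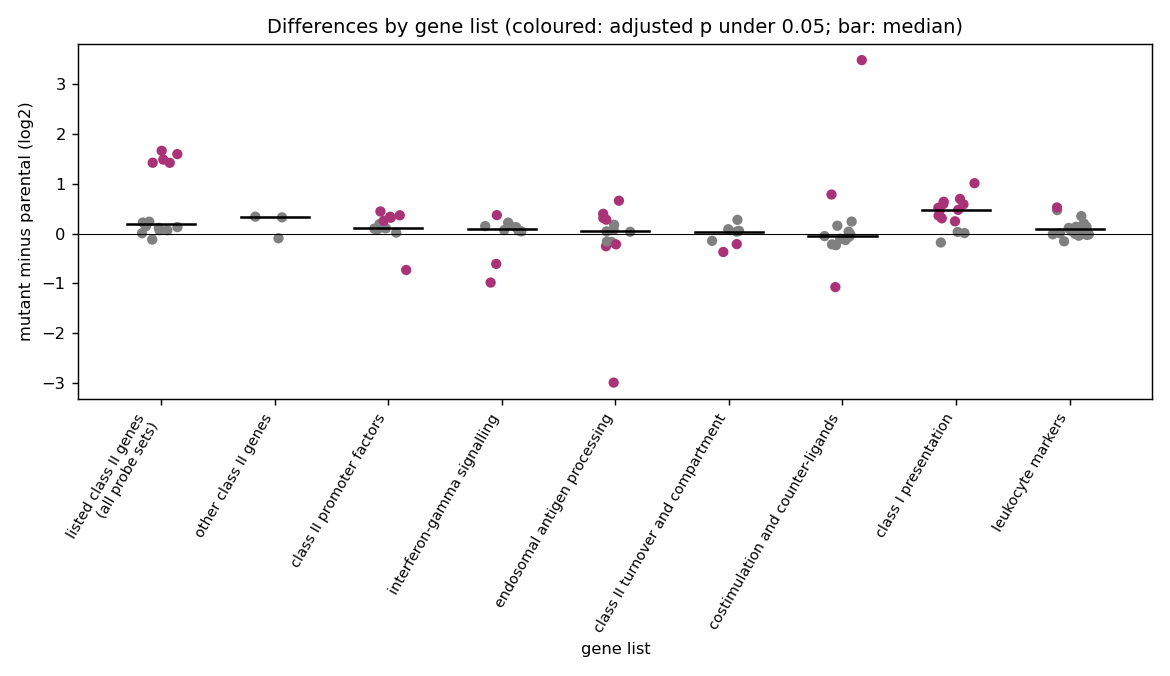
Mutant minus parental difference on the log2 scale (vertical axis) for the 14 class II probe sets and, by the brightest probe set per gene, for the 6 pathway lists, class I presentation genes and leukocyte markers (horizontal axis); black bars are medians, and coloured points had an adjusted p under 0.05. The class II probe sets split into the 5 of HLA-DP near 1.5 and 9 near 0, while class I genes lie around a median of 0.47.

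Because class II is typical of leukocytes, markers of those cells were read beside HLA-DP. Of 23 measured, 1 was higher and 0 lower, against 14.6% and 11.3% of all genes, with a median difference of 0.08. The sum of their log2 levels ran from 135.5 to 137.9 in parental and from 139.0 to 140.0 in mutant arrays, so it was slightly higher in every mutant array. RMA values do not reach 0, and single array values of these markers ran from 3.56 to 9.44. The pan-leukocyte marker PTPRC was at 3.72 in parental and 3.73 in mutant cells, and the B cell marker MS4A1 at 3.94 and 3.91. Brighter markers were the macrophage marker CD68, at 9.19 and 9.33, and the myeloid and natural killer cell adaptor gene TYROBP, at 7.64 and 7.62. CD8A was the marker that rose, by 0.52 (limma adjusted p = 0.0182), a call lost without parental replicate 1 or 3, with an adjusted p of up to 0.0580. CD4 differed by 0.47 and CD52 by 0.35, without passing limma's test (adjusted p = 0.0584 and 0.131). The part of this shift in the HLA-DP increase was not tested. Of 7 fibroblast markers, 1 was higher and 0 lower, and of 10 colon epithelium markers 0 were higher and 3, all keratins, lower.

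Genes whose pattern over the 6 arrays was most like that of HLA-DPB1 probe set 8178220 were found by the Euclidean distance between values centred on each probe set's mean. With 2 groups of 3 arrays, this likeness mostly reflects a difference of similar size. The 5 nearest of 19246 probe sets of other genes were DTX3L (distance 0.09), IL7R (0.20), SLC44A5 (0.24), CCDC92 (0.24) and PARP9 (0.25). Their differences were 1.61, 1.72, 1.57, 1.75 and 1.53. The HLA-DPA1 probe sets ranked 45 and 83 by this measure, at distances of 0.52 and 0.67, and the nearest probe set of the other listed class II genes, one of HLA-DMB, ranked 3699.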

How the data were processed

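RNA of 6 HCT116 samples was hybridised to Affymetrix whole-transcript arrays, per the labels' protocols. Each array has 1 deposited log2 value per probe set. The submitters' processing notes name RMA and Partek, without versions or a genome build. RMA makes the arrays' distributions alike and compresses differences of dim probe sets. Of 33297 probe sets, 19460 have 1 symbol, 1754 several and 12083 are not named; 558 rows repeat an earlier row. A platform annotation named probe sets. The RefSeq table of GRCh38.p14, in which 19429 single-symbol gene IDs were found, gave current symbols, chromosomes and gene order. Promoter windows and start sites came from RefSeq's promoter table.

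Mutant minus parental differences were fitted over the whole table with limma 3.58.1 (lmFit, eBayes, two-sided) in R 4.3.3, with 4 residual and 2.16 prior degrees of freedom. List genes with several probe sets were represented by the brightest. The labels do not say whether replicate arrays came from different cultures; p-values therefore reflect spread that may be technical only. On simulated data with 33297 probe sets, 60.6% of 1.5-fold, 83.3% of 2-fold and 100% of 4-fold changes were recovered. Only 66, 66 and 68 probe sets were changed at these folds, while 6166 were called in the real data. The adjusted p therefore cuts differently there, and these rates are not the power of the real test. The genes, lists and rule for naming were chosen with earlier results of these data known. The rule names every listed class II gene, up to 3 called genes per list and direction, 9 regulators always, called neighbours and the 5 nearest patterns; other genes named were chosen after their values were seen. Alternatives covered normalization, filters, variance models, identical rows, a minimum fold, the replicate number as a block and each array left out. Python 3.11.15, numpy 2.4.6, pandas 2.3.3 and matplotlib 3.10.9 served for the rest. DNA methylation was not analysed here. A gene covered by the naming rule is not reported here.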

Additional observations from a re-analysis of the deposited data

How the results depend on the processing

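The 5 HLA-DP probe sets stayed called and higher in each of the 16 alternatives, and the number of class II probe sets called was 5 in each. HLA-DPA1 ranged from 1.28 to 1.58 and HLA-DPB1 from 1.29 to 1.71, with adjusted p-values of up to 0.0208. Of 42 called probe sets whose values are given, 22 kept their call in every alternative run on them, 20 lost it in at least 1, and 0 reversed. Requiring a fold of 1.2 in the test, which is stricter by construction, lowered the probe sets called from 6166 to 1743, the pathway genes from 21 to 6 and the class I genes from 11 to 4. Leaving out each array in turn gave 4037 (without mutant replicate 2) to 4644 probe sets, 5 to 5 class II probe sets, 15 to 20 pathway genes and 9 to 10 class I genes; without parental replicate 2 it was 4109 probe sets. The replicate numbers did not pair the arrays (correlations of deviations 0.04, -0.01 and 0.0027). With the replicate number as a block, 4365 probe sets, 5 class II probe sets, 15 pathway genes and 9 class I genes were called. HLA-DOB fell below the filter at a mean of 6 and has no value there. Signal over background could not be judged, since no detection call was used here.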
